A study of Rattus norvegicus with 3 samples.

Results

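The ATP-binding cassette (ABC) transporter genes were examined in the hippocampus of rats given Q808, an anticonvulsant candidate known by this code name. Members were the rows of the count tables whose gene identifier carries a rat symbol made of Abc, a letter from a to g and a number, with any suffix kept (Abcb1a, Abcg3l1). This gave 53 of the 18560 genes in the table of replicate 2 and 52 of the 307 genes held for replicate 3. The table of replicate 1 held 12 genes and no member. The table of replicate 3 breaks off early, and nearly all of its genes tested below have symbols beginning with A. Shares and ranks over the shared genes describe this slice and not the whole transcriptome. All 3 samples come from healthy rats of wild type genotype, dosed with Q808 by gavage over 28 days, and they form 1 group. No untreated sample was analysed here, so no value below measures an effect of Q808. The count columns carry the prefix Con_Q, which the labels do not explain. If it stood for a control, the values would not describe treated tissue. The comparisons below are between replicates 2 and 3, which share every label apart from their number, and nothing in the labels states that they came from separate animals. Their spread may be partly technical.

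ABC proteins bind ATP in a conserved cassette and most use its hydrolysis to move a substrate across a membrane. Subfamily A moves lipids, B holds the P-glycoproteins and mitochondrial carriers, C holds the multidrug resistance proteins and the sulfonylurea receptors, and D works at peroxisomes and lysosomes. Members of E and F have no membrane part and act on ribosomes, while G holds sterol exporters and a drug exporter. In brain, P-glycoprotein and Abcg2 sit in the capillary wall and limit the entry of many drugs, anticonvulsants among them.

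Promoter windows are shown for 5 members on which the results below turn. Abca2 had the most counts of the family, and Abca4 had the largest ratio between the libraries among the 39 members tested. Abcb1a and Abcb1b encode the rodent P-glycoproteins, and Abcg5 faces Abcg8 head to head. Each window is 300 bases, from 250 before to 50 after the first start listed for the gene, from RefSeq on GRCr8, written 5′ to 3′ along the gene. Capitals mark CpG dinucleotides, of which the windows hold 42 (Abca2), 8 (Abca4), 10 (Abcb1a), 15 (Abcb1b) and 5 (Abcg5).
Abca2 (chr3:28642534-28642833, plus strand): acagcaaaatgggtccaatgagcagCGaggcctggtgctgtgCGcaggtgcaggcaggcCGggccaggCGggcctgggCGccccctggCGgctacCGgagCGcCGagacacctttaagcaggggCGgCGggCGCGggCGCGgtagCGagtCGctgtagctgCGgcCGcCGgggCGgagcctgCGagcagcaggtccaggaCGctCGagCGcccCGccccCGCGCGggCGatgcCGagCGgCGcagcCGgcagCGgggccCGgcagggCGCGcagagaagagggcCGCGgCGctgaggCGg
Abca4 (chr2:212849235-212849534, plus strand): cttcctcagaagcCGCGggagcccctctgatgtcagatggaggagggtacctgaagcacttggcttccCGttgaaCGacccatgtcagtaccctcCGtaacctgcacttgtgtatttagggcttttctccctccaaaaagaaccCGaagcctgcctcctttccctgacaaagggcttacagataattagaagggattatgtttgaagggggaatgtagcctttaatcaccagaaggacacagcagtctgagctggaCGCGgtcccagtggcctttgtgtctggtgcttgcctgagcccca
Abcb1a (chr4:26397599-26397898, minus strand): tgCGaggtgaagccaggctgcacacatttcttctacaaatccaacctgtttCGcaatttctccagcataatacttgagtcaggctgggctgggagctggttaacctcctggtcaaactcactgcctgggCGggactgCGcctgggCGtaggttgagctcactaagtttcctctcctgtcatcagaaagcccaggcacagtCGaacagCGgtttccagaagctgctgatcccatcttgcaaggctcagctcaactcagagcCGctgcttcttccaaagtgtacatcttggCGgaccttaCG
Abcb1b (chr4:26279980-26280279, minus strand): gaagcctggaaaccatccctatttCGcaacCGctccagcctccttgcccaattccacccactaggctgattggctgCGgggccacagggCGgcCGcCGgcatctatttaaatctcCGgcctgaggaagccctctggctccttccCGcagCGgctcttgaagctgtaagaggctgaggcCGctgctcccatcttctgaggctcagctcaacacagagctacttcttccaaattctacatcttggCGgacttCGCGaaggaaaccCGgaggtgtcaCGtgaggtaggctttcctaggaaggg
Abcg5 (chr6:15717686-15717985, plus strand): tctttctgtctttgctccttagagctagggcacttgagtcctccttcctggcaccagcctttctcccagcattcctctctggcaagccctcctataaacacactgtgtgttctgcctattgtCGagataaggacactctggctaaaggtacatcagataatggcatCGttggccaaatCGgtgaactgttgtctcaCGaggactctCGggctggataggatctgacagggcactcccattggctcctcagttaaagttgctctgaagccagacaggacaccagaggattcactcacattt

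Of the 53 members, 42 (79.2%) had at least 10 counts in replicate 2, the minimum used here to call a gene detected, against 77% of all genes in that table. Of the 52 held for replicate 3, 42 reached it, against 81.4% of the 307 genes. Counts ran from 0 to 6328 in replicate 2. There 11 members had at least 1000 counts, 21 others had at least 100 and a further 10 had at least 10. The 5 members with most counts, Abca2, Abca3, Abcc5, Abcd3 and Abce1, took 47.5% of the reads on the members held by both tables. All members together took 0.203% of the 15417009 counts in replicate 2. Among the 307 shared genes they took 10.7% of the counts in replicate 2 and 11.2% in replicate 3. Levels are given as CPM, the count relative to the table's total, which are not corrected for transcript length. They therefore describe read yield and do not order the genes by number of transcripts. Detected members had a median of 19.2 CPM, against 25.2 CPM for all detected genes.

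**Figure D1:**
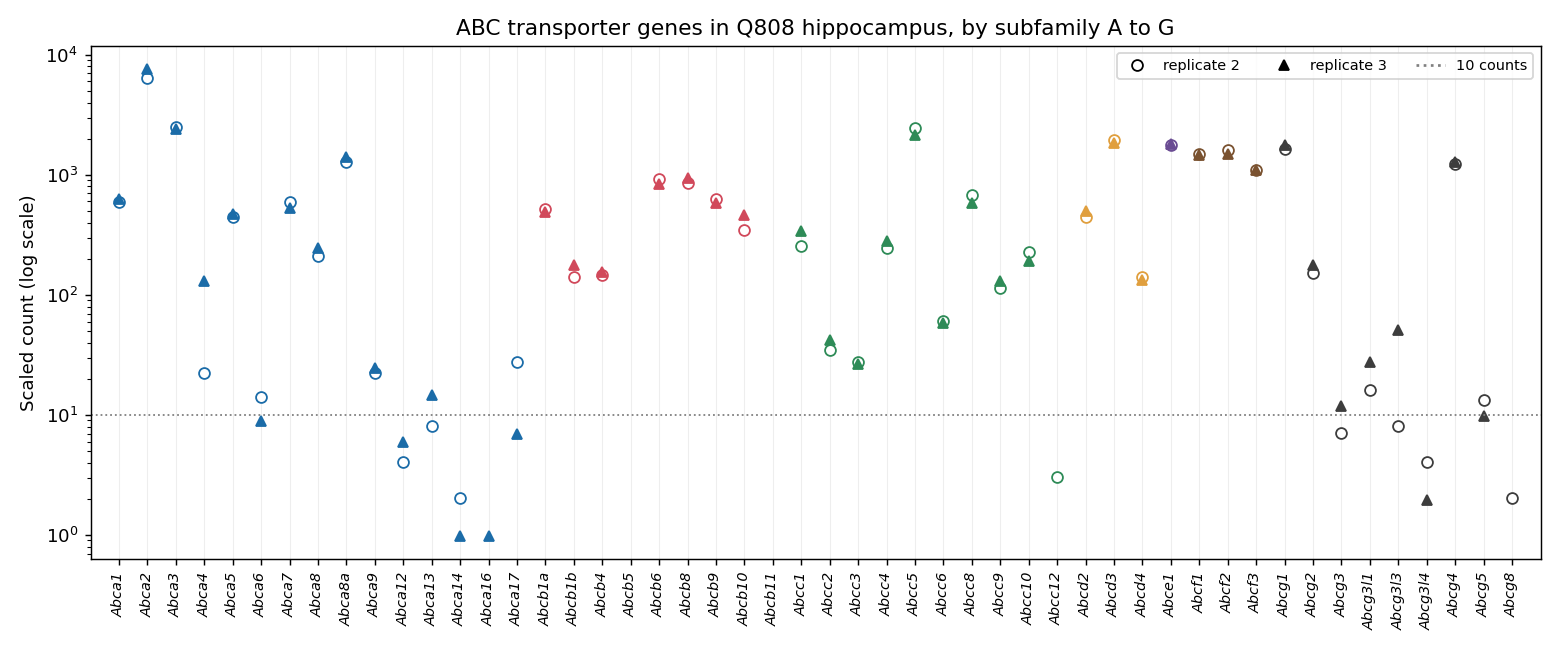
Scaled counts (log axis) of 50 of the 52 ABC genes held by both tables, ordered by subfamily, with open circles for replicate 2 and triangles for replicate 3. Values of 0 are not drawn, and the dotted line marks 10 counts. Most pairs lie close together, and the widest gaps among genes that reach 10 counts in at least 1 library are at Abca4, Abca17 and Abcg3l3.

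Lipid transporters of subfamily A took the largest share of the family's reads. Abca2, an endosomal and lysosomal lipid transporter known from oligodendrocytes of the rat brain, had 6328 counts in replicate 2 and 7706 in replicate 3. After scaling, replicate 3 stood 1.18-fold higher (95% counting interval 1.14 to 1.22; adjusted p = 1.38e-20, exact binomial test). Abca3, which loads phospholipid into lamellar bodies in lung, had 2440 and 2441 counts, a ratio of 0.968 (0.915 to 1.02). Abca8a, a lipid transporter of the cluster around Abca5, had 1255 and 1432 counts and was 1.104-fold higher in replicate 3 (1.02 to 1.19; adjusted p = 0.0352, exact binomial test), a call lost with DESeq2 size factors (adjusted p = 0.0588, exact binomial test). Its neighbour Abca8 had 207 and 252 counts, a ratio of 1.18 (0.976 to 1.42) that did not pass. Abca1, which loads cholesterol and phospholipid onto apolipoproteins, had 590 and 643 counts, a ratio of 1.05 (0.941 to 1.18). Abca7, a phospholipid exporter linked to Alzheimer disease in human genetics, had 585 and 535 counts and did not pass (ratio 0.885, 0.785 to 0.996). Abca5, found in lysosomes, had 437 and 476 counts. The pair Abca2 and Abca8a thus stood higher in replicate 3 by less than 1.2-fold, while the cholesterol exporter Abca1 and Abca3 had intervals that held 1.

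The sterol exporters of subfamily G split into a pair with more than 1000 counts, Abcg1 and Abcg4, and a pair with few, Abcg5 and Abcg8. Abcg1, which exports cholesterol to lipoprotein particles, had 1615 and 1808 counts, a ratio of 1.08 (1.01 to 1.16) that did not pass after adjustment (adjusted p = 0.0588, exact binomial test). It passed in 4 of the 5 alternative settings that were run, all but DESeq2 size factors. Abcg4, its close relative expressed in neurons and astrocytes, had 1221 and 1292 counts, a ratio of 1.02 (0.946 to 1.11). The Abcg1 counts were 1.32 times those of Abcg4 in replicate 2 (1.23 to 1.43) and 1.40 times in replicate 3 (1.30 to 1.504). These intervals overlap, which does not show equal ratios, and their difference was not tested. Abcg5 and Abcg8, which form the sterol exporter of liver and gut, had 13 and 10 counts and 2 and 0 counts. No fold is given for Abcg8, since both libraries lie under 3 counts, the floor taken here for a count of 0.

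The P-glycoprotein genes Abcb1a and Abcb1b and the drug exporter gene Abcg2 were read at moderate counts. Abcb1a, the P-glycoprotein gene of rodent brain capillaries, had 515 and 498 counts, or 33.4 CPM in replicate 2 (30.6 to 36.4), and a ratio of 0.935 (0.825 to 1.06). Abcb1b, the second rodent P-glycoprotein gene, had 139 and 181 counts and did not pass (ratio 1.26, 1.00 to 1.58; adjusted p = 0.107, exact binomial test). Within each library Abcb1a had 3.71 times (3.07 to 4.501) and 2.75 times (2.32 to 3.28) the counts of Abcb1b. These intervals overlap, which again does not show equal ratios, and their difference was not tested. Reads shared by these close copies could not be divided further than the deposited counting did. Abcg2, the breast cancer resistance protein gene, had 150 and 182 counts (9.73 CPM in replicate 2, 8.23 to 11.4), a ratio of 1.17 (0.940 to 1.47). Abcb4, a phosphatidylcholine translocator of liver next to Abcb1b, had 144 and 157 counts.

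Among the multidrug resistance proteins, Abcc5, an exporter of cyclic nucleotides and glutamate conjugates, had the most counts, with 2406 and 2196. It was 1.13-fold higher in replicate 2 (1.07 to 1.201; adjusted p = 0.000162, exact binomial test). Abcc1, an exporter of glutathione conjugates, had 251 and 344 counts and was 1.33-fold higher in replicate 3 (1.12 to 1.57; adjusted p = 0.00333, exact binomial test). A locus that RefSeq now lists as its pseudogene, Abcc1-ps1, had 44 counts in replicate 2 and is not among the genes held for replicate 3, so the division of reads between them is uncertain. Abcc4, an exporter of cyclic nucleotides and prostaglandins, had 243 and 287 counts, a ratio of 1.14 (0.960 to 1.36). Abcc10 had 222 and 194 counts, and Abcc6, the gene of pseudoxanthoma elasticum in humans, had 60 and 59. Abcc2 and Abcc3, apical and basolateral exporters of hepatocytes, had 34 and 43 and 27 and 27 counts. The ratio of Abcc2 was 1.22 (0.762 to 1.98). Of the 7 drug efflux genes fixed for description (Abcb1a, Abcb1b, Abcg2, Abcc1, Abcc2, Abcc4 and Abcc5), Abcc1 and Abcc5 passed the test, in opposite directions, where 33.7% of all 243 genes tested passed.

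The sulfonylurea receptors, regulatory subunits of ATP-sensitive potassium channels, are members of subfamily C without a transported substrate. Abcc8 (SUR1), which pairs with Kcnj11 in neurons, had 668 and 587 counts. It was 1.18-fold higher in replicate 2 (1.05 to 1.32; adjusted p = 0.0157, exact binomial test). Abcc9 (SUR2), the form of muscle and pericytes, had 112 and 133 counts, a ratio of 1.15 (0.887 to 1.49). Counts of Abcc8 were 5.96 times those of Abcc9 in replicate 2 (4.88 to 7.35) and 4.41 times in replicate 3 (3.65 to 5.37). In replicate 2 the channel pore genes Kcnj11 and Kcnj8 had 37.8 and 1.62 CPM, and the glial channel gene Kcnj10 had 30.2 CPM.

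Members of subfamily B in mitochondria and lysosomes were read at moderate counts. Abcb10, of the inner mitochondrial membrane and needed for heme synthesis in red cell precursors, had 340 and 471 counts. It was 1.34-fold higher in replicate 3 (1.16 to 1.55; adjusted p = 0.000247, exact binomial test), the largest ratio of the subfamily among the 8 genes tested. Abcb8, of the same membrane, had 848 and 961 counts (ratio 1.096, 0.999 to 1.204). It did not pass the test. Abcb6, a porphyrin transporter, had the most counts of the subfamily, 912 and 852 (ratio 0.904, 0.822 to 0.993; adjusted p = 0.0890, exact binomial test), and Abcb9, a lysosomal peptide transporter, had 625 and 591. Of the 8 genes tested in the subfamily, only Abcb10 passed (12.5%), where 33.7% of all 243 genes tested did. Whether its ratio differed from those of Abcb6, Abcb8 or Abcb9 was not tested.

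The 4 peroxisomal and lysosomal genes of subfamily D gave no call, where 33.7% of all 243 genes tested passed. With so few genes this says little of the subfamily. Abcd3, the PMP70 protein that imports branched and dicarboxylic fatty acids, had 1933 and 1856 counts (ratio 0.929, 0.871 to 0.990; adjusted p = 0.0692, exact binomial test) and passed with DESeq2 size factors, which shift every ratio slightly towards replicate 2. Abcd2, an importer of very long chain fatty acids, had 442 and 505 counts (ratio 1.105, 0.971 to 1.26). Abcd4, which exports vitamin B12 from lysosomes, had 140 and 135 counts. Among peroxisomal enzyme genes held by both tables, Acaa1a stood at 0.731-fold in replicate 3 (adjusted p = 3.36e-05, exact binomial test), while Acox3 (1.01-fold) and Acsl1 (1.04-fold) did not pass.

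The soluble members of E (1 gene) and F (3 genes) had the smallest median absolute log2 ratios of the subfamilies (0.03 and 0.01). They also had the highest median counts in replicate 2, 1738 and 1463, and counting intervals narrow as counts rise. Abce1, which splits ribosomes after termination, had 1738 and 1833 counts, a ratio of 1.02 (0.955 to 1.09). Abcf1, a factor of translation initiation, had 1463 and 1497 counts (0.990, 0.920 to 1.06), Abcf2 had 1572 and 1524 (0.938, 0.873 to 1.01), and Abcf3 had 1075 and 1121 (1.01, 0.927 to 1.098). All these intervals held 1. Scaled counts were 1785 ± 25.3 for Abce1, 1480 ± 10.7 for Abcf1, 1549 ± 70.2 for Abcf2 and 1098 ± 6.79 for Abcf3 (SD, n = 2 each).

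Abca4, the retinoid flippase of photoreceptors, stood apart. It had 22 counts in replicate 2 and 134 in replicate 3. Replicate 3 was 5.89-fold higher (3.74 to 9.72; adjusted p = 1.37e-18, exact binomial test), and the scaled mean was 77.1 ± 77.4 (SD, n = 2). This was rank 2 of all 243 ratios, after Ace, the angiotensin-converting enzyme gene, with 101 and 877 counts (8.40-fold). No gene of the cell type lists below is among the genes held for replicate 3, so whether another cell population moved with these genes was not tested. In bulk tissue, fewer cells of a type and less RNA per cell cannot be told apart.

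A further 13 members held by both tables did not reach 10 counts in each library, and 8 of them were under 10 in both. Among those under 10 in a single library, Abcg3l3, of the rodent Abcg3 group, had 8 and 52 counts, and Abca17 had 27 and 7. With no minimum count, Abcg3l3 was 6.32-fold higher in replicate 3 (2.98 to 15.4; adjusted p = 9.6e-08, exact binomial test) and Abca17 was 3.97-fold higher in replicate 2 (1.69 to 10.8; adjusted p = 0.00268, exact binomial test). The other 3 were Abca6 (14 and 9 counts), Abca13 (8 and 15) and Abcg3 (7 and 12). Under 10 counts in both libraries were Abca12 (4 and 6), Abca14 (2 and 1), Abca16 (0 and 1), Abcc12 (3 and 0), Abcg3l4 (4 and 2) and Abcg8, and no read was counted for Abcb5 or Abcb11, the bile salt export pump. A count of 0 allows up to 0.195 CPM in replicate 2. Near the minimum among tested genes, Abcg3l1 had 16 and 28 counts (ratio 1.69, 0.885 to 3.35) and Abca9 had 22 and 25, and neither passed.

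Over the family, 39 members had at least 10 counts in each library and were tested with the other shared genes. Of these, 7 passed (17.9%), against 33.7% of all 243 genes tested. The 5 higher in replicate 3 were Abca2, Abca4, Abca8a, Abcb10 and Abcc1, against 16.9% of all genes tested in that direction. The 2 higher in replicate 2 were Abcc5 and Abcc8, against 16.9% of all genes tested there. Abca4 and Abcg3l1 lay past 1.5-fold, where 10.3% of all genes tested did. Within 1.2-fold lay 32 members (82.1%), against 68.7% of all genes tested and 66.2% of the 204 others. The genes tested nearly all have symbols beginning with A, so these shares are not those of the transcriptome. The median absolute log2 ratio was 0.14 for members and 0.17 for all genes tested, at median counts in replicate 2 of 437 and 417. With 1 library on each side, these tests cover counting error and say nothing of conditions.

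**Figure D2:**
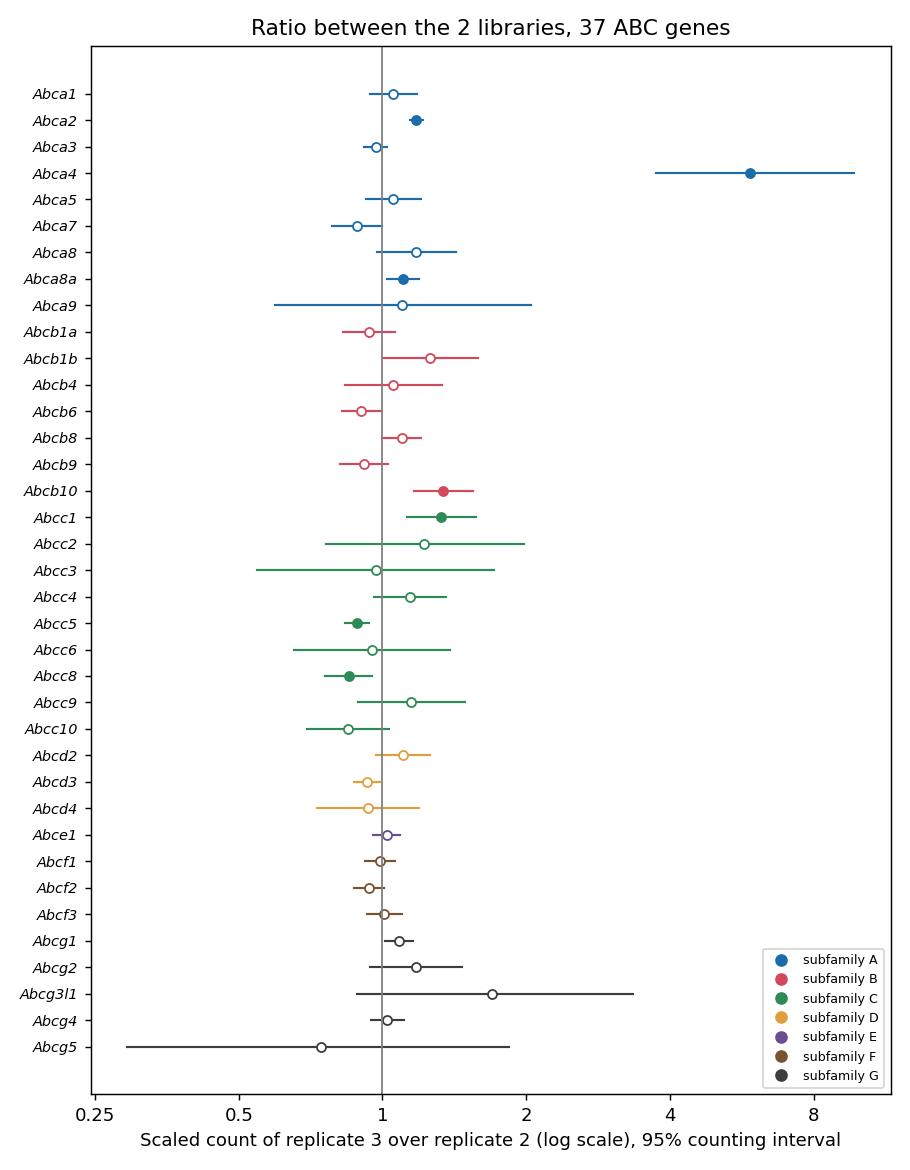
Ratio of the scaled count in replicate 3 to that in replicate 2 (log axis) for 37 of the 39 ABC genes tested, coloured by subfamily. Lines are 95% counting intervals, and filled points passed the exact binomial test. Of the 7 filled points, 6 lie between 0.850 and 1.34, and Abca4 lies at 5.89.

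The spread between the libraries was small for most members. The coefficient of variation of scaled counts had a median of 6.98% over the 39 genes, was under 5% for 14 of them, and was highest for Abca4, at 100.4%. The common biological coefficient of variation, edgeR's estimate of spread beyond counting noise, was 0.140 for the 39 members and 0.173 for the 204 other shared genes. It was 0.0688 without Abca4, and 0.134 for the other genes without Ace, both left out after their values were seen. Thus Abca4 alone moved the family's value by more than 1.5 times.

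**Figure D3:**
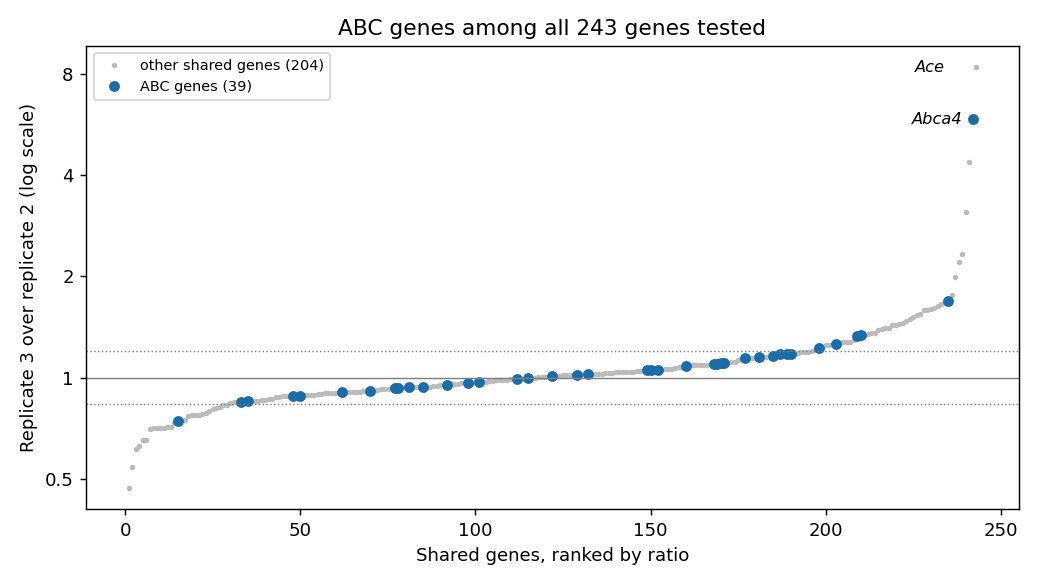
The 243 genes tested, with 10 or more counts in both libraries, ranked by the ratio of replicate 3 to replicate 2 (log axis), with ABC genes as large points and dotted lines at 1.2-fold either way. The ABC genes lie mostly on the flat part of the curve, and Abca4 is next to Ace at the upper end.

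Subfamily A took 38.2% of the counts on the 52 shared members in replicate 2 (95% Clopper-Pearson interval 37.6 to 38.7) and 40.8% in replicate 3 (40.3 to 41.3). Subfamily C took 12.9% (12.5 to 13.2) and 11.5% (11.2 to 11.9). The intervals of A, C, D and F do not meet between the libraries, while those of B, E and G overlap. Abca2 alone held 53.0% and 56.3% of the reads of subfamily A. The summed scaled counts of A were 1.11-fold those of replicate 2 (1.08 to 1.14), and 1.03-fold (0.993 to 1.07) without Abca2. Subfamily B took 11.7% and 11.6%, D took 8.82% (8.51 to 9.14) and 8.19% (7.90 to 8.49), E took 5.56% and 5.46%, F took 13.1% (12.8 to 13.5) and 12.3% (11.999 to 12.7), and G took 9.71% and 10.1%. Sums for C were 0.930-fold (0.890 to 0.972) and those for G were 1.08-fold (1.03 to 1.13). Sums for B, D, E and F were 1.02-fold, 0.963-fold, 1.02-fold and 0.975-fold, with intervals that held 1. Detection by subfamily is given as a description, and no difference was tested. Over all genes, 77% reached 10 counts in replicate 2, and 81.4% of the 307 shared genes did in replicate 3. All 8 members of D, E and F reached 10 counts in both libraries, while 3 of 15 in A, 2 of 10 in B, 1 of 10 in C and 2 of 9 in G stayed under 10 in both.

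**Figure D4:**
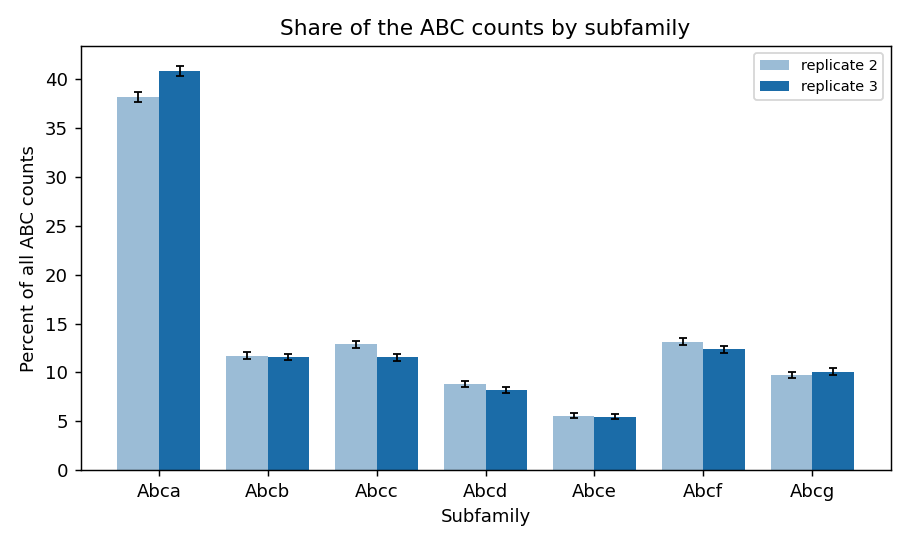
Percent of all ABC counts taken by each subfamily in replicate 2 (light bars) and replicate 3 (dark bars), with 95% Clopper-Pearson intervals that cover counting error. The bars of subfamily A stand at 38.2% and 40.8%, and those of subfamily C at 12.9% and 11.5%.

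Many members lie beside each other in the genome. Among the protein-coding genes of GRCr8, 19 genes under the naming rule form 7 runs of direct neighbours, and 17 of them had a row in the table of replicate 2. In the run Abca8, Abca8a, Abca9, Abca6 and Abca5 on chromosome 10, counts in replicate 2 ran from 14 to 1255, and Abca8a was the gene that passed. Abca17 and Abca3 are neighbours on the same chromosome. Abca3 counts were 90.4 times those of Abca17 in replicate 2 (62.0 to 137) and 349 times in replicate 3 (169 to 868). In the run Abcb4, Abcb1b and Abcb1a on chromosome 4 none passed, where 33.7% of all 243 genes tested did. Abcg3 and Abcg3l3 adjoin on chromosome 14 with 7 and 12 and 8 and 52 counts. Whether the deposited counting used strand is not given, so reads of overlapping neighbours cannot be told apart.

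Promoter windows were matched for 42 of the 53 members, and CpG content went with read counts. The 25 members with at least 100 counts in replicate 2 had a median of 24 CpG dinucleotides in the window, against 22 for the 8915 genes of the table in that count class. The 7 with 10 to 99 counts had a median of 8 (12 for such genes of the table), and the 10 under 10 counts had 7.5 (5 for such genes). Abcd3 had 50 CpG dinucleotides, Abca5 had 47 and Abca2 had 42. At a limit of 14 chosen after the values were seen, 22 of the 25 members with at least 100 counts reached it, the exceptions being Abca8 (4), Abcd2 (9) and Abcb1a (10). Of the 17 with fewer counts, 1 did, Abca14. The same gradient is present over all genes of the table, so it is not particular to the family. The points share 1 library, and the counts also depend on transcript length.

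Short motifs were searched on both strands of the same windows. GGGCGG, the core of the GC box, was found in 24 of the 42 (57.1%), against 54.4% of the 14132 genes of the count table with a window and 34.9% of all 27457 promoters in the reference. Among members with at least 100 counts it was found in 19 of 25 (76%), against 64.5% of the 8915 genes of the table in that class. TATAAA was found in 7 (16.7%, against 8.89% of the genes of the table and 14.3% of all promoters) and CACGTG, an E-box, in 3 (7.14%, against 8.55% and 6.65%). The windows of Abcb1a and Abcb1b share a longest exact run of 15 bases, and both hold GGGCGG. Those of Abcg5 and Abcg8 overlap by 295 bases on opposite strands, so the Abcg5 sequence printed above is nearly the whole window of its neighbour too. It holds TATAAA on 1 of its strands. A match is a description of letters and not of a binding site.

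**Figure D5:**
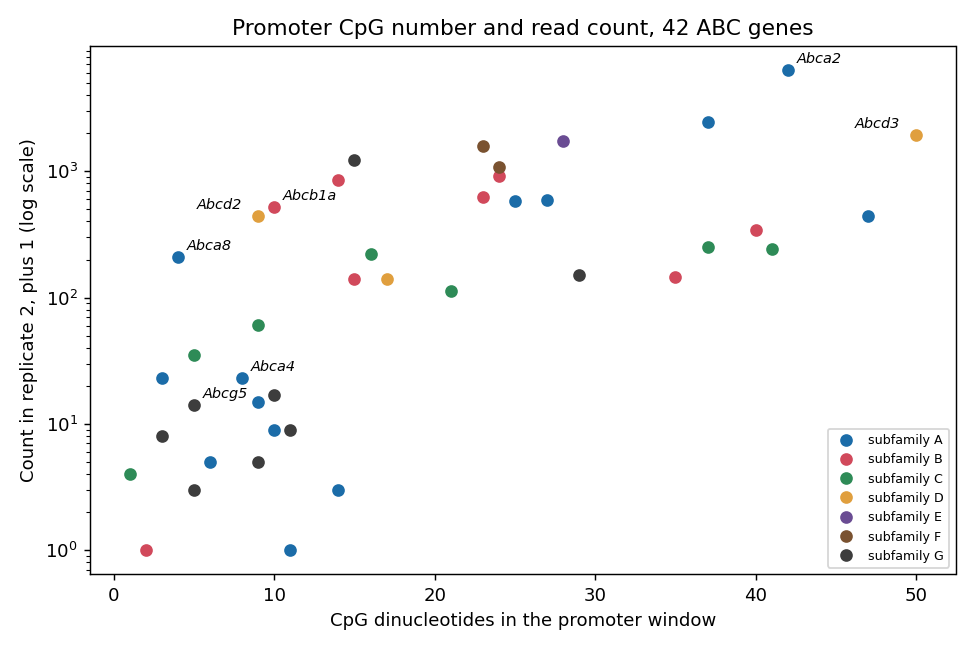
CpG dinucleotides in the promoter window of 42 ABC genes against their count in replicate 2 plus 1 (log axis), coloured by subfamily. Genes with at least 100 counts lie mostly at 14 or more CpG dinucleotides, with Abca8, Abcd2 and Abcb1a to the left, while Abca4 and Abcg5 lie low on both axes.

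Genes that work with the transporters were read in replicate 2, and apart from peroxisomal enzyme genes they have no value in replicate 3. Over all genes of replicate 2, 77% were detected, with a median of 25.2 CPM among those detected. Of 20 genes of cholesterol handling, 19 were detected (median 79.9 CPM), with Apoe and Clu, which encode lipid-carrying apolipoproteins, at 3482 and 923 CPM. Of 18 genes of drug uptake, sensing and conjugation, 17 were detected (median 24.0 CPM), led by Gstm1 (166 CPM) and Por (125 CPM). Nr1i2, the pregnane X receptor that induces Abcb1 genes, had 3 counts. All 13 genes of antigen peptide loading were detected, led by the chaperone genes Canx and Calr (701 and 601 CPM), while Tap1 and Tap2, which are ABC transporters outside the naming rule, had 65 and 27 counts. All 12 peroxisomal genes (median 45.6 CPM, led by Slc27a4 and Cat), 9 of 10 iron-sulfur and heme genes (led by Iscu and Glrx5) and all 9 ribosome rescue genes (led by Gcn1 and Hbs1l) were detected, as were the 3 channel genes.

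Cell type markers were read in replicate 2, where 77% of all genes were detected. Whether they tell hippocampus from other brain regions was not tested. All 8 neuron markers were detected, among them Slc17a7 (1796 CPM) and Snap25 (2479 CPM), as were all 6 markers each of astrocytes, oligodendrocytes and microglia. All 8 endothelial and mural markers were detected (median 44.5 CPM), led by Slc2a1 (140.3 CPM). The choroid plexus list had 7 of 8 at 10 counts or more, with Ttr at 176 CPM and the next, Clic6, at 4.15 CPM. The 3 blood markers were detected, led by Hba-a1 at 127 CPM.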

How the data were processed

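RNA was sequenced from the hippocampus in 3 samples of 1 group. The authors deposited raw counts per gene, 1 table per sample; per the file headers, every gene has its NCBI identifier and annotation. Tools named in the submitters' processing notes are HISAT2, Bowtie2, SAMtools, StringTie, Cufflinks, HTSeq, DESeq and Trimmomatic. Their versions and roles, the build and the strand setting are not stated there. The tables of replicates 1 and 3 break off inside a row, so their depth is unknown.

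Symbols came from RefSeq (GRCr8) by gene identifier, for 17515 of 18560 genes. From the deposited counts, CPM with exact 95% Clopper-Pearson intervals were computed in replicate 2. Replicates 2 and 3 were scaled by edgeR 4.0.16 TMM factors over the 243 genes of both tables that had 10 or more counts in both libraries. The comparison per gene was an exact binomial test, two-sided (SciPy 1.17.1), with Benjamini-Hochberg adjustment over all 243 genes, called at 0.05. The test was tried on simulated data. Intervals cover counting error alone, because no spread between samples enters them. PCR copies of a molecule were not marked by identifiers, so the intervals may be too narrow even for counting error. The design planned levels per coding length and a search of protein motifs, which were not run because no protein lengths or sequences were used here. Levels are therefore given without length.

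Named with full values are the 2 genes with most counts in each subfamily, each member that passed, and 7 drug efflux genes; most others are named to account for the members, and a few genes are not reported here. The members and lists were chosen with earlier results of these data known. Alternatives were other scalings (DESeq2 1.42.0 size factors, total counts, TMM without the members) and minimums (none, 50).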

Additional observations from a re-analysis of the deposited data

How the results depend on the processing

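Over the 5 planned settings, the number of members that passed ranged from 7 to 10. With DESeq2 size factors 7 of 39 passed, against 32.9% of all genes tested. With total counts 8 of 39 did (32.9% of all genes tested), as with TMM without the members (33.3%). With no minimum count 10 of 50 passed, against 27.9% of all genes tested. With a minimum of 50 counts 7 of 33 did, against 35.4%. Abca2, Abcb10, Abcc1, Abcc5 and Abcc8 passed in each setting. Abca4 has too few counts for the minimum of 50, where it was not tested. The number past 1.5-fold was 2, against 12 of 50 with no minimum (23.1% of all genes tested there). It was 0 of 33 with a minimum of 50 counts (6.13% of all genes tested there). Alternatives chosen after seeing the data left out single genes. Without Abca4, 6 of 38 members passed, where 33.7% of all 243 genes tested did with it kept. The sum of subfamily A fell from 1.11-fold to 1.03-fold without Abca2. The shares of 5 subfamilies lay outside the counting interval of replicate 2 when read in replicate 3: 40.8% for A, 11.5% for C, 8.19% for D, 12.3% for F and 10.1% for G. The other 57 summary values, those without a replicate included, kept their side of the threshold or stayed within their interval. Leaving out replicate 1 changed no member's value, and leaving out replicate 2 or 3 ends the comparison. No paired analysis was possible because the design has a single group. Genes under about 50 counts have wide intervals, so ratios such as that of Abcg3l1 could not be told from 1 at this depth.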
